A study of Saccharomyces cerevisiae with 42 samples.

Results

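The comparison described here asks how much of the transcriptional answer to hyperosmotic stress depends on a Hog1 kinase that is held at membranes. It is the response of the strain HOG1-CCAAX to 60 min of 1 M sorbitol minus the response of the strain hog1del, each response being the log2 level at 60 min minus the log2 level at 0 min. The members are the samples of these 2 strains at both times, 28 of the 42 in the series, and the difference was formed within each of the 3 biological replicates. A positive value means that a transcript rose more, or fell less, in HOG1-CCAAX than in hog1del.

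In HOG1-CCAAX the kinase ends in CCAAX, a signal to which cells attach a lipid, so that the protein is tethered to membranes. In hog1del the HOG1 gene is deleted, and HOG1-GFP, the third strain of the series, carries a Hog1 fused to green fluorescent protein. All 3 strains grew at 25 °C and were sampled before the shock and 60 min into it. The labels do not give the rest of the genotype or say whether a strain is 1 clone or several. No culture was kept for 60 min without sorbitol, so time and shock cannot be told apart within a strain. The difference between strains compares cultures that went through both.

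The high-osmolarity glycerol pathway ends in the mitogen-activated protein kinase Hog1, which cells activate when the medium draws water out of them. Active Hog1 acts on metabolic enzymes and on the cell cycle in the cytoplasm, and on promoters in the nucleus, and cells with it accumulate glycerol. Its upstream kinases Ste11 and Ste20 also serve the mating and filamentation pathways, and in cells that lack Hog1 an osmotic shock is known to switch on mating genes, which is called cross-talk.

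Levels are log2 ratios of each sample to a common reference pool hybridised to the same array, so they compare samples for 1 gene and not genes with each other. A value was at hand in all 18 level columns for 5443 genes, which were tested together. A gene passed at an adjusted p under 0.05. Errors are SDs over the 3 replicates. Across genes the difference of response in replicate 2 was wider (SD 0.54) than in replicates 1 and 3 (0.37 and 0.38). Across genes the difference in replicate 1 correlated with those in replicates 2 and 3 at r = 0.33 and 0.46, and replicates 2 and 3 correlated at 0.61, which describes the arrays, since genes are not independent replicates. The labels call the replicates biological without saying whether they came from separate cultures, so the p-values measure only the spread between them.

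HOG1 (YLR113W), the gene of the kinase, separates the strains. Its level in HOG1-CCAAX was −0.29, −0.34 and −0.15 at 0 min and 0.35, 0.60 and 0.06 at 60 min in replicates 1 to 3. In hog1del it read −3.03, −3.20 and −3.47 at 0 min and −3.97, −3.49 and −3.64 at 60 min, below every value of HOG1-CCAAX, and as the gene is deleted there the readings are a floor of the probe rather than a transcript. A probe against GFP gave a level of −0.15 and 0.05 in HOG1-CCAAX before the shock in replicates 2 and 3, where it was measured, against −5.11 and −4.67 in hog1del and 0.42 and 0.21 in HOG1-GFP. The labels name no such tag for HOG1-CCAAX. The HOG1 response itself was 1.06 ± 0.62 higher in HOG1-CCAAX (adjusted p = 0.0408), made up of 0.59 ± 0.37 in that strain and −0.46 ± 0.41 at the floor of hog1del, and it did not pass without replicate 1 (0.0812), 2 (0.2000) or 3 (0.0884), or without the replicate block (0.2635).

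Genes of stress protection, storage carbohydrates and carbon use were among those that responded more in HOG1-CCAAX than in hog1del, and genes of mating, ribosome biogenesis, the cell cycle and biosynthesis were among those that responded less. The response was higher in HOG1-CCAAX for 79 genes, 1.45% of those tested, and lower for 60, which is 1.10%, together 139 or 2.55%. At least 2-fold differences were 45 higher (0.827%) and 26 lower (0.478%). Over all tested genes the median difference was 0.04, and the 5th and 95th percentiles were −0.54 and 0.53. In limma's test of the difference, 1067 of the 5443 genes had an unadjusted p under 0.05. This is the background for list counts at that threshold. All 139 called genes had the same sign in 3 of 3 replicates, as had 2507 of the 5443 tested genes. The 3 responses of HOG1-CCAAX all lay above the 3 of hog1del for 51 of the 79, against 7.51% of all genes, and all below them for 48 of the 60, against 6.30%. These counts use the same replicate values that made the calls and are no separate support for them.

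How many genes passed depended on the replicates that entered. Without replicate 1 the test called 189 higher and 153 lower, without replicate 2 14 and 12, and without replicate 3 6 and 5. Without the replicate block 2 higher and 5 lower genes passed, and these 7 (SPG4, FMP48, AGA2, KAR4, STE12, NOP56 and NOP58) were among the 139 and passed under each of the 11 alternatives. In every one of the 11 alternatives all called genes that could be fitted kept their sign. For fits that leave out a replicate this was fixed in advance, since the 3 replicate differences of each called gene share a sign. The fit without the block has the same mean differences, so the kept sign is given there too.

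Both strains moved in the same direction for most called genes, to different extents. Among the 79 higher genes, 61 rose in both strains, 9 rose in HOG1-CCAAX and did not pass in hog1del, 4 rose in HOG1-CCAAX and fell in hog1del, 3 fell in hog1del alone and 2 fell in both. Among the 60 lower genes, 21 rose in both strains, 19 fell in both, 8 fell in HOG1-CCAAX alone, 7 rose in hog1del alone and 5 fell in HOG1-CCAAX and rose in hog1del. The background of these counts is broad, since 35.9% of tested genes rose and 33.6% fell in HOG1-CCAAX, and 34.3% rose and 35.5% fell in hog1del. The higher genes had a median response of 2.07 in HOG1-CCAAX and 1.12 in hog1del, and the lower genes of −0.46 and 0.70.

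**Figure D1:**
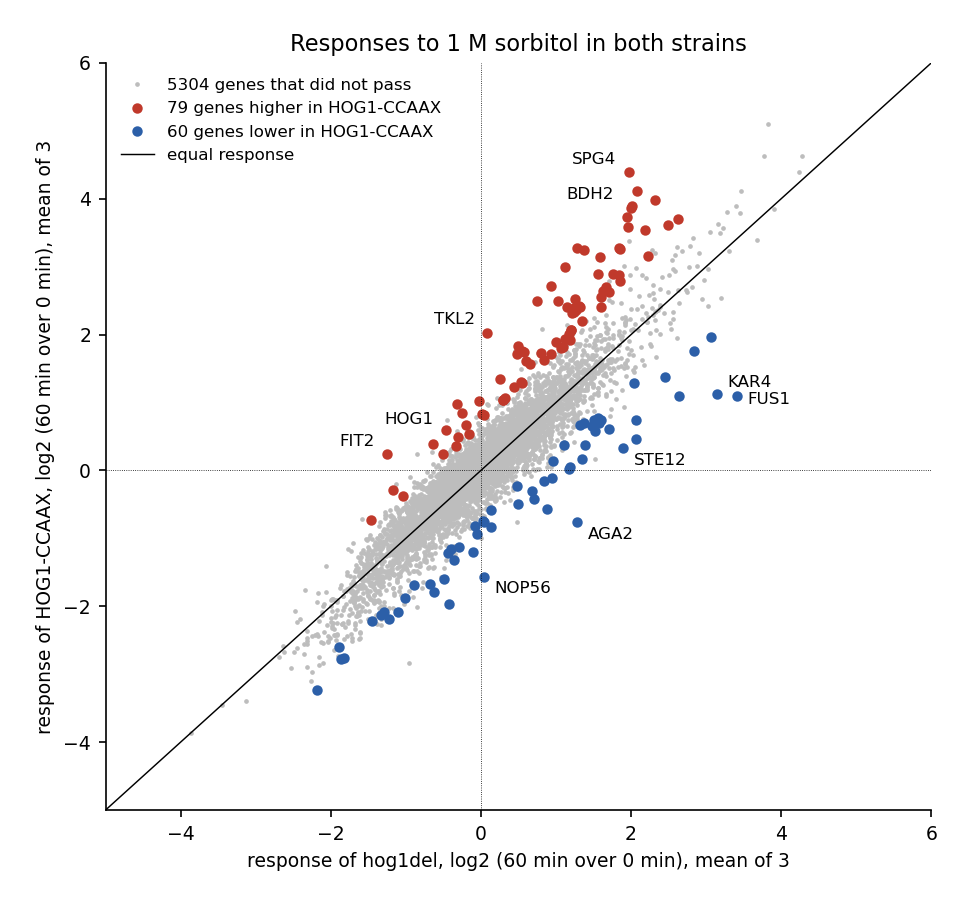
Mean log2 response to 60 min of 1 M sorbitol (60 min over 0 min, 3 replicates) of hog1del on the horizontal axis and of HOG1-CCAAX on the vertical axis, 1 point per tested gene. The 79 genes with a higher response in HOG1-CCAAX lie above the line of equal response and mostly to the right of 0, and the 60 with a lower response lie below it on both sides of 0.

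The level difference between the strains was larger at 60 min than at 0 min for 73 of the 79 higher genes and 59 of the 60 lower genes. Its median moved from −0.13 to 0.95 in the higher genes and from 0.01 to −0.94 in the lower genes, while over all genes it was 0.01 and 0.05. At 0 min the level difference passed in limma for 2 of the 79 and 0 of the 60, against 0.165% of all genes higher and 0.110% lower. At 60 min it passed for 70 and 57, against 6.12% and 5.07%. The difference of response is the level difference at 60 min minus that at 0 min. Genes called by it are thus chosen in part for a large gap at 60 min, and these counts are no separate evidence. Of the 139, 127 passed at 60 min with all replicates and the block, 133 without replicate 1, 61 without replicate 2, 61 without replicate 3 and 41 without the replicate block. At an unadjusted p under 0.05, 29 of the 79 and 12 of the 60 already differed at 0 min, against 12.1% of all genes. The gap at 0 min enters the difference of response with a minus sign. The choice of genes therefore shapes these counts too, and they are no separate evidence of a gap before the shock. The gap was the larger one at 0 min for FIT2, YIL100W, CIS1, TIS11, YMR141C and AFR1 among the higher genes, named after their values were seen, and for WSC4 among the lower ones. YIL100W, for instance, lay at −0.79 before and 0.24 after the shock. Besides HOG1, the gene that passed at 0 min was FIT2 (YOR382W), a cell wall mannoprotein that retains siderophore iron, which was lower in HOG1-CCAAX before the shock (−1.37, adjusted p = 0.0019) and differed by 0.12 after it (adjusted p = 0.5624).

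**Figure D2:**
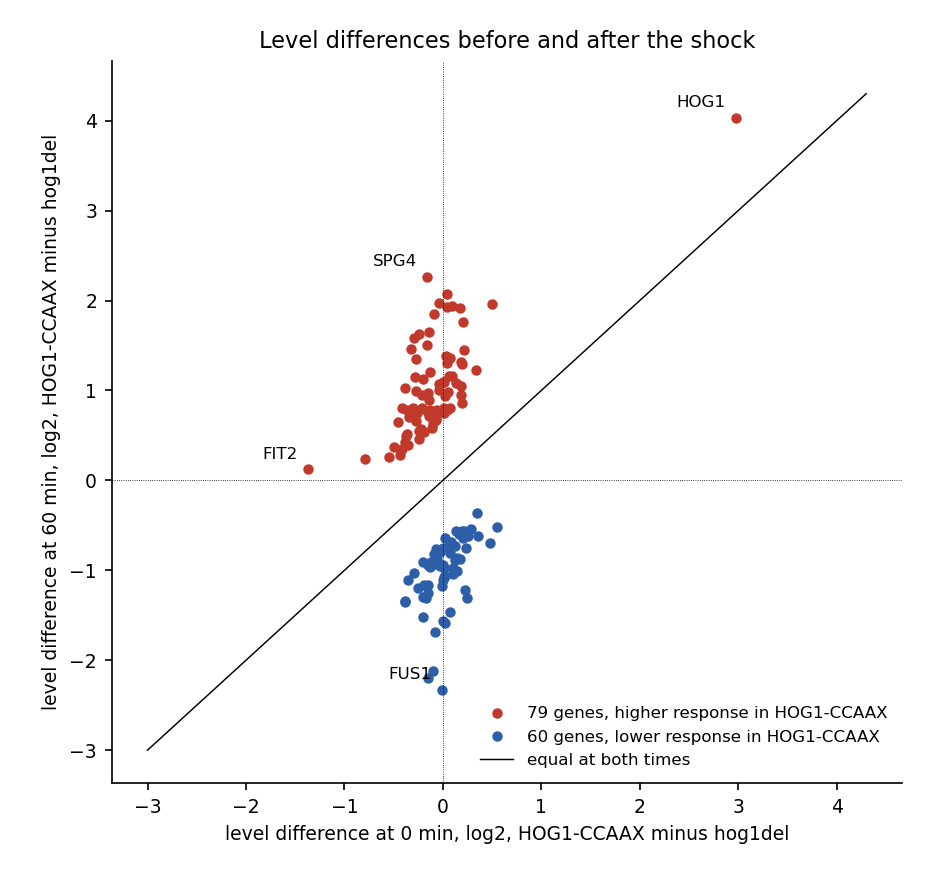
Level difference HOG1-CCAAX minus hog1del (log2, mean of 3 replicates) at 0 min on the horizontal axis and at 60 min on the vertical axis for the 139 genes whose response differed. Higher genes have a median of −0.13 before the shock and 0.95 after it, and lower genes of 0.01 and −0.94, with HOG1, which is deleted in hog1del, and FIT2, at −1.37 before the shock, lying apart.

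The largest excess of response in HOG1-CCAAX belonged to SPG4 (YMR107W), a gene named for its need in the survival of stationary-phase cells at high temperature. It rose by 3.67, 4.94 and 4.57 in replicates 1 to 3 of HOG1-CCAAX and by 1.53, 2.13 and 2.25 in hog1del, so that the strains did not overlap. The replicate differences were 2.14, 2.81 and 2.33, a mean of 2.42 ± 0.35 or 5.37-fold (95% interval 2.00 to 2.85, adjusted p = 2.3e-04). The call held without each replicate in turn (highest adjusted p 0.0267, without replicate 3) and without the block (0.0366).

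BDH2 (YAL061W), which codes for a putative medium-chain alcohol dehydrogenase, followed with a rise of 3.60, 4.62 and 4.12 in HOG1-CCAAX against 1.72, 2.08 and 2.43 in hog1del. All 3 responses of HOG1-CCAAX were the higher ones, and the difference was 2.04 ± 0.45 (adjusted p = 0.0014). YNL194C, an eisosome-associated membrane protein of the Sur7 family, rose by 2.25, 4.32 and 3.28 and 0.66, 1.44 and 1.74 in the 2 strains, a difference of 2.00 ± 0.76 (adjusted p = 0.0060). Its neighbour on the chromosome, YNL195C, whose product is uncharacterised, differed by 1.88 ± 0.81 (adjusted p = 0.0078). The 2 genes are one of 3 adjacent pairs found among the called genes that matched a RefSeq locus tag. FMP48 (YGR052W), a kinase-like protein found in mitochondria, rose by 3.82, 4.26 and 3.50 against 1.99, 1.94 and 2.08, and the difference of 1.86 ± 0.45 (adjusted p = 0.0015) passed without each replicate and without the block (0.0313). YHR033W, of unknown function, showed how far replicates could part, at differences of 0.77, 2.50 and 2.07 (mean 1.78 ± 0.90, adjusted p = 0.0083). Among the 15 genes with the largest positive differences, 15 of 15 passed without replicate 1 (adjusted p 0.0025 to 0.0192), 11 without replicate 2 (0.0022 to 0.0631), 5 without replicate 3 (0.0267 to 0.1643) and 2 without the replicate block (0.0313 to 0.6111).

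**Figure D3:**
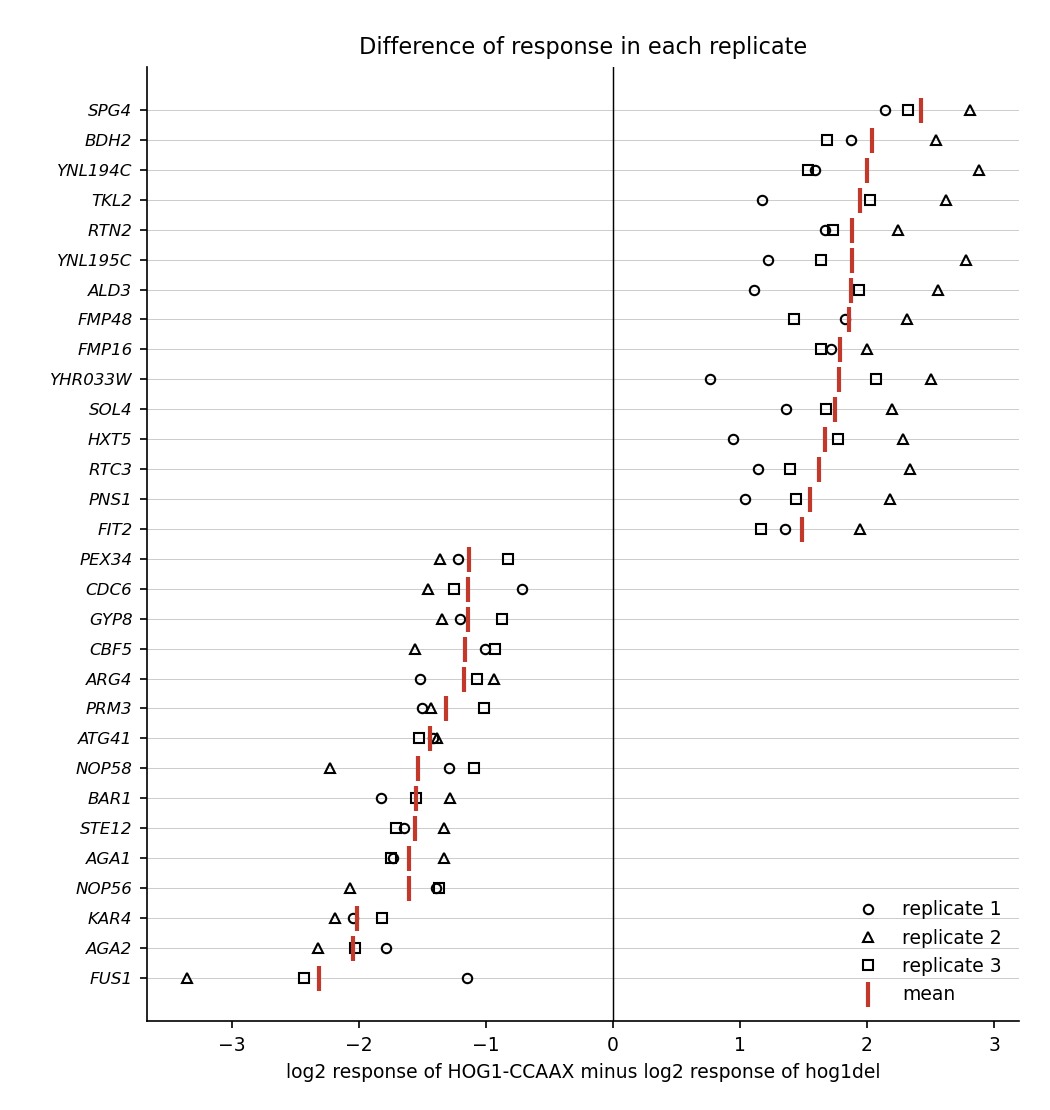
Difference of response, HOG1-CCAAX minus hog1del (log2), in each of the 3 replicates (open symbols) and their mean (bar) for the 15 genes with the largest positive and the 15 with the largest negative difference among those that passed. Every symbol of a gene lies on the same side of 0, which the choice of genes required, and replicate 2 is the farthest from 0 in all 15 of the higher genes.

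Genes of the general and osmotic stress response were among those with the larger response in HOG1-CCAAX. Of 43 tested, 16 responded more in HOG1-CCAAX, against 1.45% of all tested genes, 0 responded less and 27 did not pass. The median difference was 0.88 beside 0.04 over all genes. This and the other lists were chosen with earlier results of these data known, so such counts and medians are no independent evidence. Of the calls, YNL194C, TKL2, GRE3 and CWP1 are also in a list that the authors chose for weak induction in hog1del, described below. The stress list is not one of genes silent in the deletion, as 43 of the 43 rose in HOG1-CCAAX and 38 in hog1del, with medians of 2.50 and 1.62. RTN2 (YDL204W), a reticulon that shapes endoplasmic reticulum membrane, rose by 2.57, 4.84 and 4.26 in HOG1-CCAAX and by 0.90, 2.60 and 2.53 in hog1del. The lowest replicate of the former lay within the range of the latter, while each paired difference was positive, at 1.67, 2.24 and 1.73 (mean 1.88 ± 0.32, adjusted p = 0.0021). FMP16 (YDR070C), a protein found in mitochondria, differed by 1.79 ± 0.19 (adjusted p = 0.0060) and RTC3 (YHR087W) by 1.62 ± 0.63 (adjusted p = 0.0134).

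The pentose phosphate branch was represented by 3 enzymes of that list that have a more constitutive paralogue. TKL2 (YBR117C), the minor transketolase, rose by 0.53, 3.16 and 2.40 in HOG1-CCAAX. In hog1del it changed by −0.64, 0.53 and 0.37, a response that did not pass (adjusted p = 0.7021). Its difference was 1.94 ± 0.73 (adjusted p = 0.0060). The 6-phosphogluconolactonase gene SOL4 (YGR248W) differed by 1.74 ± 0.42 (adjusted p = 0.0092) and the transaldolase gene NQM1 (YGR043C) by 1.41 ± 0.49 (adjusted p = 0.0350). GND2, the minor phosphogluconate dehydrogenase of the same list, missed the threshold at 0.88 (adjusted p = 0.0913).

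Other members that passed were the mitochondrial outer membrane protein gene OM45 at 1.26, DCS2 (a regulator of mRNA decapping) at 1.35 and MSC1 at 1.07. Some well-known stress genes of the same list missed the threshold. The cytosolic catalase gene CTT1 (YGR088W) rose by 4.58, 5.36 and 3.94 in HOG1-CCAAX and 3.44, 4.31 and 3.55 in hog1del, a difference of 0.86 ± 0.40 (95% interval 0.23 to 1.48, adjusted p = 0.1290). GRE1 (YPL223C), a hydrophilin, differed by 0.79 ± 0.32 (adjusted p = 0.0875), and its 3 responses in HOG1-CCAAX (1.67, 2.44 and 1.95) all exceeded those in hog1del (1.12, 1.29 and 1.29). MPC3 (YGR243W), a subunit of the mitochondrial pyruvate carrier, differed by 1.27 ± 0.46 (adjusted p = 0.0724). DDR48 had the lowest difference of the list, at −0.12. Among the 16 calls, 14 of 16 passed without replicate 1 (adjusted p 0.0025 to 0.0882), 6 without replicate 2 (0.0022 to 0.2694), 4 without replicate 3 (0.0267 to 0.3515) and 1 without the replicate block (0.0366 to 0.7432).

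Storage carbohydrate genes gave 5 calls. Of 21 trehalose and glycogen genes 5 passed as higher in HOG1-CCAAX, 0 as lower and 16 did not pass, and 20 of the 21 lay above 0, with a median of 0.60. PGM2 (YMR105C), the main phosphoglucomutase, rose by 1.12, 3.80 and 2.58 in HOG1-CCAAX and by 0.00, 1.55 and 1.54 in hog1del. The ranges overlap between replicates, and the paired difference was 1.47 ± 0.68 (adjusted p = 0.0242). TPS2 (YDR074W), which removes the phosphate from trehalose-6-phosphate, differed by 1.24 ± 0.34 (adjusted p = 0.0088), and GSY2 (YLR258W), the major glycogen synthase, by 1.22 ± 0.32 (adjusted p = 0.0080). TSL1, a regulatory subunit of the trehalose synthase complex, and GIP2, a glycogen-targeting subunit of protein phosphatase 1, passed at 0.89 and 0.92. The debranching enzyme gene GDB1 differed by 0.94 (adjusted p = 0.0747), and PGM1, the minor phosphoglucomutase, had the only negative value of the list, at −0.34. Among the 5 calls, 5 of 5 passed without replicate 1 (adjusted p 0.0184 to 0.0431), 0 without replicate 2 (0.0594 to 0.3159), 0 without replicate 3 (0.0720 to 0.3241) and 0 without the replicate block (0.3415 to 0.7714).

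Carbon use gave calls of single genes. ALD3 (YMR169C), a cytosolic aldehyde dehydrogenase, rose by 2.18, 4.20 and 3.34 in HOG1-CCAAX and by 1.07, 1.64 and 1.40 in hog1del, with no overlap, and differed by 1.87 ± 0.73 (adjusted p = 0.0083). HXT5 (YHR096C), a hexose transporter of slowly growing cells, rose by 2.77, 4.82 and 4.36 against 1.82, 2.53 and 2.59 and differed by 1.67 ± 0.67 (adjusted p = 0.0083). It was the only one of 17 hexose transport and glucose sensing genes that passed, and the list's median was 0.08. The low-affinity transporter gene HXT1 (YHR094C) changed by 0.60, −0.01 and −0.03 in HOG1-CCAAX and 0.92, −0.02 and −0.28 in hog1del, a difference of −0.02 ± 0.29 (95% interval −0.60 to 0.56, adjusted p = 0.9728). ACS1, an acetyl-CoA synthetase used on non-fermentable carbon, differed by 1.17 ± 0.25 (adjusted p = 0.0047), NDE2, an external NADH dehydrogenase of mitochondria, by 1.08 ± 0.47 (adjusted p = 0.0131), and PNS1 (YOR161C), a choline-transporter-like protein, by 1.55 ± 0.58 (adjusted p = 0.0134). Of the 24 tricarboxylic acid and glyoxylate cycle genes 0 passed in limma (4 at an unadjusted p under 0.05), and the median was 0.05. For ALD3, HXT5, BDH2, ACS1, NDE2 and PNS1, 6 of 6 passed without replicate 1 (adjusted p 0.0077 to 0.0170), 3 without replicate 2 (0.0029 to 0.1277), 1 without replicate 3 (0.0270 to 0.1643) and 0 without the replicate block (0.0591 to 0.6718).

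Glycerol genes, the namesake targets of the pathway, gave 1 call. Among 11 tested, DAK1 (YML070W), a dihydroxyacetone kinase, rose by 0.71, 1.76 and 1.59 in HOG1-CCAAX and changed by −0.17, 0.43 and 0.52 in hog1del, a difference of 1.09 ± 0.23 (adjusted p = 0.0061). The median of the list was 0.14. STL1 (YDR536W), the glycerol importer of the plasma membrane, changed by 0.48, 1.07 and 0.66 in HOG1-CCAAX and by −1.25, 0.07 and −0.17 in hog1del. The strains did not overlap, but the paired difference, 1.19 ± 0.48 (95% interval 0.45 to 1.93), missed the threshold (adjusted p = 0.0870). GCY1, a glycerol dehydrogenase, and GUT2, the mitochondrial glycerol-3-phosphate dehydrogenase, differed by 0.55 (adjusted p = 0.1128) and 0.45 (adjusted p = 0.2502). GRE3 (YHR104W), an aldose reductase, and YML131W, an oxidoreductase-like protein, passed at 1.29 ± 0.30 and 1.01 ± 0.24. For DAK1, GRE3 and YML131W, 3 of 3 passed without replicate 1 (adjusted p 0.0102 to 0.0221), 0 without replicate 2 (0.0656 to 0.1277), 0 without replicate 3 (0.1364 to 0.2325) and 0 without the replicate block (0.2738 to 0.5852).

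Some genes of the pathway's best-known output lack replicate 1 and were fitted apart, among the 5999 measured in 2 or more replicates of each strain. GPP2 (YER062C), the glycerol-3-phosphatase induced by osmotic stress, rose by 4.63 and 4.67 in HOG1-CCAAX and by 4.37 and 4.02 in hog1del, and its difference, 0.46, fell short of the threshold (adjusted p = 0.3222). HSP12 (YFL014W), a small membrane-stabilising stress protein, rose by 6.14 and 5.16 against 4.17 and 4.14, a difference of 1.49 (adjusted p = 0.0267). DDR2 (YOL052C-A), another multistress gene, differed by 1.99 (adjusted p = 0.0259). GPD1 (YDL022W), the glycerol-3-phosphate dehydrogenase gene, has both strains in replicate 2 only, at 4.44 and 3.74, with no test.

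Redox and chaperone genes contributed single members. Of 30 oxidative stress and redox genes 3 were higher and 0 lower (median 0.22). GPX1 (YKL026C), a glutathione peroxidase, rose by 0.92, 2.42 and 2.15 in HOG1-CCAAX against −0.23, 0.84 and 0.89 in hog1del and differed by 1.33 ± 0.22 (adjusted p = 0.0023), and TSA2, a peroxiredoxin, and OYE3, an NADPH oxidoreductase, by 1.02 ± 0.37 and 0.81 ± 0.36. Among 19 heat shock proteins and chaperones 3 were higher, and the median of the list was −0.03, below that of all genes. HSP26 (YBR072W), a small heat shock protein, rose by 3.09, 4.18 and 3.58 in HOG1-CCAAX and 1.65, 3.02 and 2.81 in hog1del, a difference of 1.12 ± 0.34 (adjusted p = 0.0286). The Hsp70 gene SSA3 and the methylglyoxalase gene HSP31 passed at 0.79 and 0.78, whereas the mitochondrial chaperonin gene HSP60 differed by −0.71 (adjusted p = 0.1145). For these 6, 4 of 6 passed without replicate 1 (adjusted p 0.0077 to 0.0632), 1 without replicate 2 (0.0275 to 0.3159), 0 without replicate 3 (0.0720 to 0.4292) and 0 without the replicate block (0.2610 to 0.5298).

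Genes of the kinase cascade gave 1 call and those of its effectors 3. Among 16 sensors and kinases of the pathway HOG1 alone passed, and the next in size were the mucin-like sensor gene MSB2 at −0.33 (adjusted p = 0.2723) and the membrane sensor gene SHO1 at −0.31 (adjusted p = 0.2656). A list of 9 genes held phosphatases of Hog1 or of other MAP kinases, and their partners. Of these, 0 passed in limma (1 at an unadjusted p under 0.05). The largest difference was 0.53 (adjusted p = 0.1487), for SDP1, a phosphatase of another MAP kinase. Of 18 effectors and transcription factors 3 were higher. RCK1 (YGL158W), a kinase related to MAPK-activated kinases, rose by 1.86, 3.23 and 3.54 in HOG1-CCAAX and 0.75, 2.06 and 2.72 in hog1del, a difference of 1.03 ± 0.19 (adjusted p = 0.0061). CIN5, a bZIP factor of salt tolerance, and USV1, a zinc finger factor, differed by 0.92 ± 0.26 (adjusted p = 0.0148) and 1.13 ± 0.23 (adjusted p = 0.0092). For HOG1 and these 3, 3 of 4 passed without replicate 1 (adjusted p 0.0170 to 0.0812), 0 without replicate 2 (0.0596 to 0.2000), 0 without replicate 3 (0.0884 to 0.1991) and 0 without the replicate block (0.2139 to 0.7458).

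Some mating genes responded less in HOG1-CCAAX than in hog1del, while most members of the mating lists did not pass. Of 18 tested mating effectors 6 were lower, 1 was higher and 11 did not pass, with a median of −0.49. Of 6 a-specific genes 3 were lower and all lay below 0 (median −0.81). The list of mating signalling and feedback gave 2 lower of 15 (median −0.17).

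FUS1 (YCL027W), a membrane protein of cell fusion, had the most negative value of all. It changed by −0.17, 1.56 and 1.91 in HOG1-CCAAX and by 0.97, 4.92 and 4.34 in hog1del, and replicate 1 was the lowest in both strains, so that the ranges overlap. The paired differences were −1.15, −3.36 and −2.44, a mean of −2.32 ± 1.11, 4.98-fold lower (adjusted p = 0.0172), and it missed the threshold on leaving out replicate 2 (−1.79 (adjusted p = 0.0594)) or 3 (−2.25 (adjusted p = 0.1920)). AGA2 (YGL032C), the adhesion subunit of the a-agglutinin with which a cells bind partners, fell by 0.96, 0.87 and 0.46 in HOG1-CCAAX and rose by 0.83, 1.46 and 1.56 in hog1del. The strains thus moved in opposite directions, with a difference of −2.05 ± 0.27 (95% interval −2.40 to −1.70, adjusted p = 2.3e-04). AGA1 (YNR044W), which anchors Aga2 in the wall, changed by −0.33, 0.99 and 0.71 against 1.41, 2.32 and 2.47, a difference of −1.61 ± 0.24 (adjusted p = 0.0034).

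KAR4 (YCL055W), a transcription factor of nuclear fusion genes, rose in both strains, by 1.54, 0.73 and 1.12 in HOG1-CCAAX and by 3.59, 2.92 and 2.94 in hog1del. The difference of −2.02 ± 0.19 (adjusted p = 0.0014) was nearly the same in each replicate (−2.05, −2.19 and −1.82). In replicate 1 the hog1del level of KAR4 at 60 min rests on 1 array. STE12 (YHR084W), the factor that drives mating and filamentation genes, rose by 0.33, 0.40 and 0.26 and 1.97, 1.73 and 1.97, a difference of −1.56 ± 0.20 (adjusted p = 0.0010). Both also passed without the block (adjusted p = 0.0366 and 0.0152). BAR1 (YIL015W), the protease with which a cells degrade alpha-factor, rose by 1.54, 1.05 and 0.68 and 3.37, 2.34 and 2.23, a difference of −1.55 ± 0.27 (adjusted p = 0.0078), and PRM3, a nuclear envelope protein of karyogamy, differed by −1.32 ± 0.26 (adjusted p = 0.0060).

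PRM4, PRM5 and KAR5 passed at −0.75, −0.73 and −0.69, and the a-factor gene MFA2 (YNL145W), which fell in both strains, at −0.95. AFR1 (YDR085C), which is needed for the shape of mating projections and dampens receptor signalling, was the effector with the opposite sign, at 0.72 ± 0.09 (adjusted p = 0.0241). The pheromone-arrest gene FAR1 and the MAP kinase gene FUS3 fell short, at −0.95 (adjusted p = 0.0509) and −0.70 (adjusted p = 0.0530). PRM10, counted as a mating effector by its name, had the largest positive value of that list, 0.97 (adjusted p = 0.1237).

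TEC1 (YBR083W), the partner of Ste12 at filamentation genes, rose by 2.06, 1.83 and 1.39 in HOG1-CCAAX and by 3.00, 2.85 and 2.68 in hog1del, a difference of −1.08 ± 0.18 (adjusted p = 0.0099). It was the 1 call among 16 filamentous growth genes (median −0.17), of which the adhesin gene FLO11 differed by 0.59 (adjusted p = 0.0870) and NFG1 by −0.78 (adjusted p = 0.1535). Values in replicates 2 and 3 alone were at hand for STE2 (YFL026W), the alpha-factor receptor, which rose by 1.19 and 1.29 in hog1del and changed by −0.14 and −0.01 in HOG1-CCAAX (difference −1.32, adjusted p = 0.0121 in the wider fit), and for the fusion gene PRM1 (difference −1.45, adjusted p = 0.0259). Of 4 alpha-specific genes 0 passed in limma (1 at an unadjusted p under 0.05), with the alpha-factor gene MF(ALPHA)1 at −1.32 (adjusted p = 0.0787). For the 12 lower mating genes and regulators together, 11 of 12 passed without replicate 1 (adjusted p 0.0025 to 0.0548), 6 without replicate 2 (0.0022 to 0.2926), 3 without replicate 3 (0.0267 to 0.3697) and 3 without the replicate block (0.0152 to 0.6421).

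**Figure D4:**
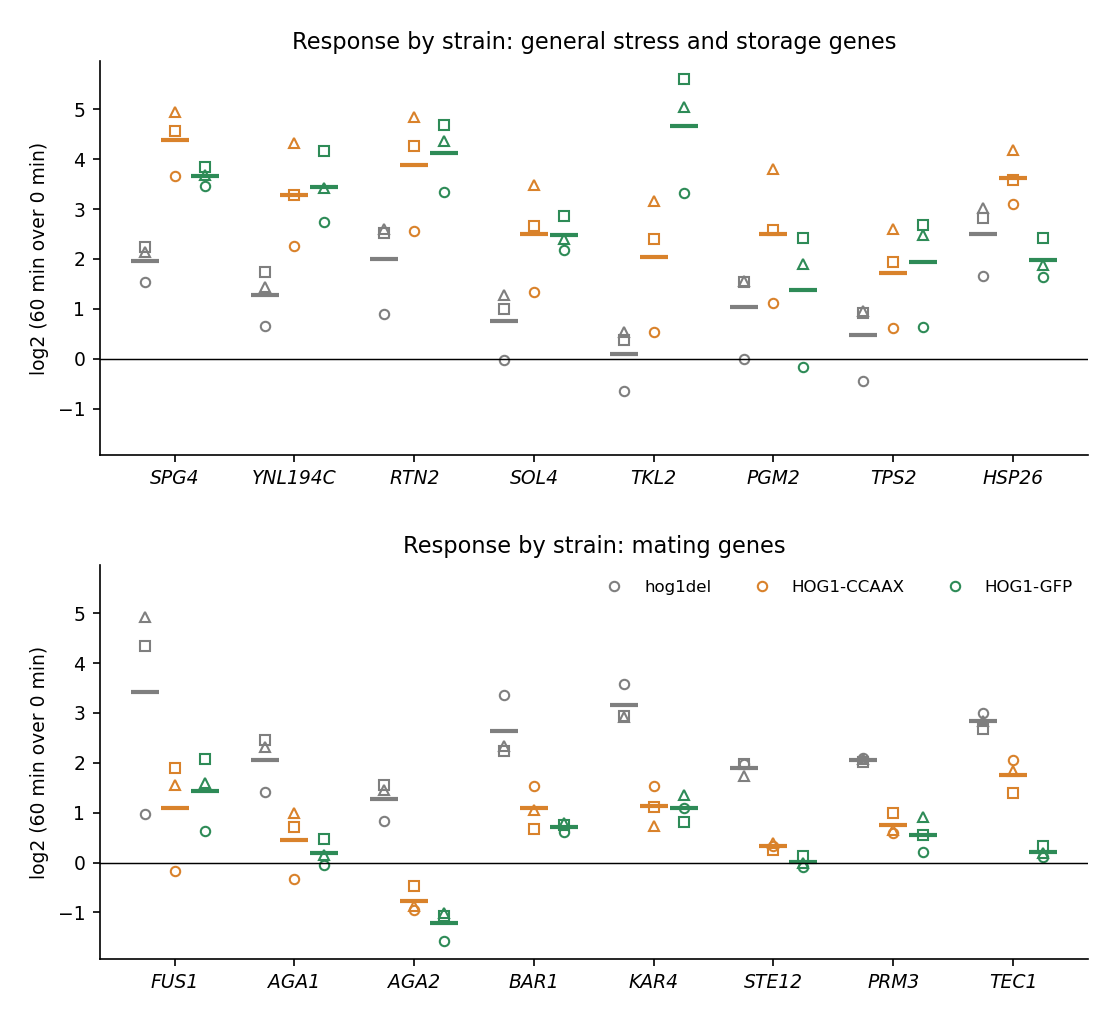
Log2 response to sorbitol (60 min over 0 min) in hog1del, HOG1-CCAAX and HOG1-GFP for 8 stress and storage genes (upper panel) and 8 mating genes (lower panel), with circles for replicate 1, triangles for replicate 2, squares for replicate 3 and bars for the mean. The hog1del values are the lowest of the 3 strains on average for all stress genes shown except HSP26, and the highest for all mating genes shown.

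Growth genes formed the third block. Nearly all ribosome biogenesis genes fell in both strains, 77 of 77 in HOG1-CCAAX and 73 in hog1del, with median responses of −1.94 and −1.36. In the test of the difference 10 of the 77 passed as lower, 0 as higher and 67 did not pass, the median difference was −0.54, and 74 lay below 0. NOP56 (YLR197W) and NOP58 (YOR310C) code for the paired core proteins of box C/D small nucleolar ribonucleoproteins, which methylate ribosomal RNA. NOP56 fell by 1.43, 1.63 and 1.64 in HOG1-CCAAX and changed by −0.03, 0.44 and −0.27 in hog1del, a difference of −1.61 ± 0.40 (adjusted p = 0.0023). NOP58 changed by −1.76, −2.38 and −1.75 and −0.47, −0.15 and −0.65, a difference of −1.54 ± 0.61 (adjusted p = 0.0058). In neither gene did the strains overlap.

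CBF5 (YLR175W), the pseudouridine synthase of the box H/ACA particles, differed by −1.17 ± 0.34 (adjusted p = 0.0092), RPF2, an assembly factor of the large subunit, by −1.05 ± 0.35, and UTP23, of the small subunit processome, by −0.97 ± 0.18. The other calls were RRP12, NOC2, MAK21, ERB1 and KRE33, between −0.95 and −0.70. NOP7 had the most negative mean of the list, −1.88 ± 2.08, and did not pass (adjusted p = 0.0955). The RNA helicase gene PRP43, which serves splicing and ribosome assembly and was not in the list, passed at −1.09 ± 0.12, but not without replicate 2 (adjusted p = 0.0627), replicate 3 (0.1432) or the block (0.3415). Among the 10 calls in the list, 10 of 10 passed without replicate 1 (adjusted p 0.0077 to 0.0252), 2 without replicate 2 (0.0212 to 0.3734), 2 without replicate 3 (0.049954 to 0.4406) and 2 without the replicate block (0.0402 to 0.9007). Of 18 subunits of RNA polymerases I and III, RPC19, which both enzymes share, passed at −0.79 ± 0.26 (adjusted p = 0.0413), but not without replicate 1 (0.0750), 2 (0.2885) or 3 (0.1726) or without the block (0.2738), with a list median of −0.08. The list of cytosolic ribosomal protein genes was drawn by name, and its 107 tested members include RPP1, a subunit of RNase P. Many members have near-identical copies that a probe may not separate. Of the 107, 105 fell in each strain and 0 passed limma's test of the difference (15 at an unadjusted p under 0.05, 14 of them lower). The median difference was −0.17.

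**Figure D5:**
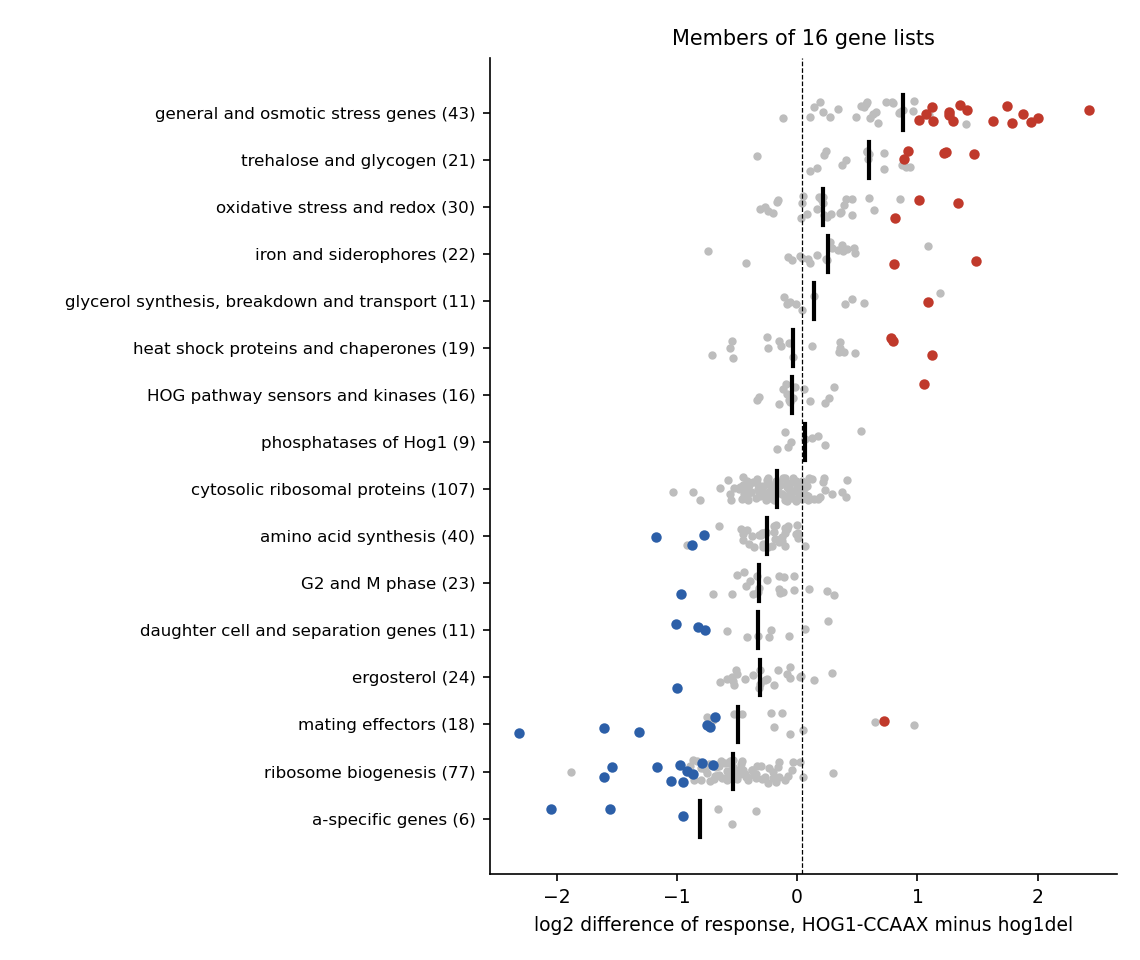
Log2 difference of response, HOG1-CCAAX minus hog1del, for the tested members of 16 of the gene lists (number in brackets), with red and blue points for genes that passed as higher and lower, grey points for the rest, a bar at the list median and a dashed line at the median of all genes. The medians run from 0.88 for general and osmotic stress genes to −0.81 for a-specific genes.

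Cell cycle genes differed in a few members, all of them lower in HOG1-CCAAX. PCL2 (YDL127W), a G1 cyclin of the kinase Pho85, rose by 1.90, 1.90 and 2.08 in HOG1-CCAAX and by 2.84, 3.06 and 3.31 in hog1del, a difference of −1.11 ± 0.15 (adjusted p = 0.0047), and it was the 1 call among 12 G1 cyclin and Start genes. CDC6 (YJL194W), which loads the replicative helicase at origins, changed by 0.08, −0.12 and 0.13 and rose by 0.79, 1.34 and 1.38, a difference of −1.14 ± 0.38 (adjusted p = 0.0101). CLB2 (YPR119W), the main mitotic cyclin, fell by 0.29, 0.98 and 1.23 in HOG1-CCAAX and changed by 0.21, 0.10 and 0.11 in hog1del, a difference of −0.97 ± 0.43 (adjusted p = 0.0204), and was the 1 call of 23 G2 and M phase genes, of which 20 lay below 0 (median −0.32).

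Of 11 genes of daughter cells and cell separation, 3 were lower. AMN1 (YBR158W), which blocks mitotic exit signals in daughters, fell in both strains (−1.68 and −0.67) and differed by −0.64, −1.45 and −0.92 in replicates 1 to 3, a mean 2.01-fold lower (adjusted p = 0.0283). DSE1 and the glucanase gene SCW11 passed at −0.83 and −0.77, and the chitinase gene CTS1 did not (difference −0.59 (adjusted p = 0.0796)). Of 8 histone genes 0 passed in limma (1 at an unadjusted p under 0.05). For the 6 cell cycle and daughter genes, 6 of 6 passed without replicate 1 (adjusted p 0.0077 to 0.0436), 1 without replicate 2 (0.0490 to 0.1738), 0 without replicate 3 (0.1374 to 0.3515) and 0 without the replicate block (0.0647 to 0.2635).

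Biosynthetic genes gave scattered lower values. ARG4 (YHR018C), argininosuccinate lyase, changed by −0.43, 0.39 and 0.55 in HOG1-CCAAX and rose by 1.09, 1.33 and 1.61 in hog1del, a difference of −1.18 ± 0.31 (adjusted p = 0.0059). ARG1, the enzyme before it in arginine synthesis, and MET6, methionine synthase, passed at −0.88 and −0.77, which makes 3 of 40 amino acid synthesis genes (median −0.25, with 37 below 0). ERG11 (YHR007C), the cytochrome P450 of ergosterol synthesis, changed by −0.16, −0.02 and −0.31 and rose by 1.08, 0.92 and 0.53, 2.00-fold lower in HOG1-CCAAX (adjusted p = 0.0117), the 1 call of 24 ergosterol genes (median −0.31). CYB5, the cytochrome b5 that passes electrons to sterol enzymes, differed by −1.01 ± 0.18 (adjusted p = 0.0088), and ADE1 of purine synthesis by −0.77 ± 0.14 (adjusted p = 0.0275). For these 6, 6 of 6 passed without replicate 1 (adjusted p 0.0113 to 0.0446), 1 without replicate 2 (0.0266 to 0.2165), 0 without replicate 3 (0.0935 to 0.4717) and 0 without the replicate block (0.0703 to 0.6904).

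The iron list had 2 higher calls, and the cell wall list had calls in both directions. FIT2 changed by −0.48, 0.80 and 0.38 in HOG1-CCAAX and by −1.83, −1.14 and −0.78 in hog1del, a difference of 1.49 ± 0.41 (adjusted p = 0.0092), which sits beside its lower level in HOG1-CCAAX before the shock. TIS11, a factor that degrades messages when iron is short, passed at 0.81, and the siderophore transporter gene SIT1 did not (difference 1.09 (adjusted p = 0.0524)). Among 27 wall genes the mannoprotein genes CWP1 and PST1 were higher (1.27 and 0.74) and the cold-shock mannoprotein gene TIR1 was lower (−0.94). For these 5, 5 of 5 passed without replicate 1 (adjusted p 0.0094 to 0.0318), 0 without replicate 2 (0.0627 to 0.3767), 0 without replicate 3 (0.0872 to 0.4643) and 0 without the replicate block (0.2001 to 0.6421). The lists of phosphate starvation, thiamine, sodium, potassium and proton transport, mitochondrial pyruvate and lactate, proteasome, and autophagy and vacuolar proteases hold 109 members. Of these, 0 passed in limma and 18 had an unadjusted p under 0.05, against 1067 of all 5443 tested genes. The list medians lay between −0.08 and 0.26.

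Of the 139 called genes, 36 of the 79 higher and 34 of the 60 lower belong to at least 1 of the 33 lists, and the rest to none. Of all 5443 tested genes, 760 belong to a list. The lists were chosen with earlier results of these data known, so this cover is no finding about the calls. Among those outside the lists, ATG41 (YPL250C), an autophagy gene, fell in HOG1-CCAAX (−0.93, −0.27 and −0.49) and rose in hog1del (0.49, 1.11 and 1.04), a difference of −1.45 ± 0.07 (adjusted p = 0.0293). GYP8, which acts on Rab GTPases of the secretory pathway, differed by −1.14 ± 0.24 (adjusted p = 0.0204), PEX34, of peroxisomes, by −1.14 ± 0.28 (adjusted p = 0.0092), and CSR2, an arrestin-like adaptor, by 1.43 ± 0.21 (adjusted p = 0.0030), which did not pass without replicate 3 (0.0802) or without the block (0.5529). For ATG41, GYP8, PEX34, PRY2 and YCR064C, 5 of 5 passed without replicate 1 (adjusted p 0.0086 to 0.0396), 1 without replicate 2 (0.0466 to 0.1277), 0 without replicate 3 (0.0720 to 0.3821) and 0 without the replicate block (0.0846 to 0.4632). PEX34 lies next to KAR4, and the third adjacent pair with locus tags, GPG1 and PRP43, had differences of opposite sign (0.77 and −1.09).

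The authors deposited a list of 30 genes that they had chosen for induction in HOG1-GFP and weak induction in hog1del. As hog1del samples served that choice, the values of its genes are no independent evidence of direction. Of the 29 that could be tested, 10 were higher in HOG1-CCAAX, 0 were lower and 19 did not pass, with a median difference of 0.97 and median responses of 2.91 in HOG1-GFP and 0.76 in hog1del. YNL194C and TKL2 had its largest differences. At its other end were NFG1, which rose by 3.00 ± 0.69 in HOG1-GFP and changed by 0.30 ± 0.12 in HOG1-CCAAX and 1.09 ± 0.19 in hog1del, and APQ12, a nuclear envelope protein, at −0.17 (adjusted p = 0.7042).

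Set beside HOG1-GFP, most called genes of HOG1-CCAAX were not distinguished from it. This second comparison uses the same HOG1-CCAAX samples, so its values are given side by side only. Over all genes the response of HOG1-GFP was higher than that of HOG1-CCAAX for 1.40% and lower for 1.98%. Among the 79 higher genes HOG1-GFP exceeded HOG1-CCAAX in 6, fell below it in 10 and did not pass in 63, and among the 60 lower genes these counts were 4, 8 and 48. Of the 139, 28 passed with all replicates and the block, 35 without replicate 1, 14 without replicate 2, 4 without replicate 3 and 2 without the replicate block. The 6 include TKL2 (HOG1-GFP minus HOG1-CCAAX 2.62 ± 0.68 (adjusted p = 6.5e-04)), ALD3 (1.96 ± 0.73 (adjusted p = 0.0039)) and DAK1 (1.32 ± 0.24 (adjusted p = 0.0013)), for which HOG1-CCAAX lay between the other strains. The 10 include HSP26 (−1.63 ± 0.59 (adjusted p = 0.0035)), USV1 (−1.22 ± 0.46 (adjusted p = 0.0046)) and RCK1 (−1.12 ± 0.17 (adjusted p = 0.0030)), whose response in HOG1-CCAAX was above that of both other strains. TKL2 and HSP26 passed on leaving out each replicate in turn, ALD3, DAK1 and RCK1 were lost without replicate 3 (adjusted p = 0.0770, 0.0696 and 0.0662) and USV1 without replicate 2 (0.0503) or 3 (0.0511). None of the 6 passed without the replicate block (adjusted p 0.0935 to 0.7850).

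Among the mating genes TEC1 (−1.55 ± 0.45 (adjusted p = 0.0010)) and PRM4 (−1.08, adjusted p = 0.0069) responded still less in HOG1-GFP, though PRM4 did not pass without replicate 2 (0.0731) or 3 (0.1705) or without the block (0.0773). FUS1 (0.34 ± 0.41 (adjusted p = 0.7200)), KAR4 (−0.04 ± 0.58 (adjusted p = 0.9400)), AGA2 (−0.46 ± 0.26 (adjusted p = 0.1483)) and STE12 (−0.31 ± 0.16 (adjusted p = 0.2935)) did not pass, which does not show that the 2 strains act alike. STL1 and HXT1, which missed the threshold here, lay below HOG1-GFP, by 4.11 ± 0.78 (adjusted p = 1.7e-04) and 3.54 ± 0.61 (adjusted p = 1.2e-04).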

How the data were processed

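Transcripts were measured on 2-colour arrays, the sample in Cy3 and a common reference pool in Cy5, per the labels. Each biological replicate has 1 deposited table of levels, which are log2 ratios of reference over sample that the authors averaged over technical arrays, 3 in replicate 1 and 2 in replicates 2 and 3, where both come from duplicate features of 1 slide, per the series' design text. How arrays were scaled and spots filtered was not given in the sources used here. The sign of all values was turned here, so that higher means more transcript. Means of the deposited per-array log2 values correlated with the level columns at r of at least 0.997 and were an alternative. The lowest correlation between level columns was −0.46; the labels state the dyes, so no sign was changed further. 1 array's title and channel label differ in the technical replicate number, and the title was used.

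Of 8635 probes 6278 name open reading frames, and 5804 matched a RefSeq locus tag, used for symbols and neighbours only. The 5443 genes with values in all 18 level columns were fitted with limma 3.58.1 in R 4.3.3 (lmFit, contrasts.fit, eBayes, two-sided) on 9 log2 responses of 3 strains, with strain and replicate as terms, tested on simulated data. P-values were adjusted after Benjamini and Hochberg over all of them. Levels at 0 and 60 min were fitted likewise. Replicate numbers were taken as pairs because the contrast is defined as differences within each biological replicate. Deviations of equal number correlated at 0.82, 0.51 and 0.70 in replicates 1 to 3. Replicates 2 and 3 also correlated across numbers, at 0.46 and 0.58. The 0.58, of HOG1-CCAAX replicate 2 with hog1del replicate 3, exceeds the 0.51 of replicate 2 with its own number, so the correlations do not settle the pairing.

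Named are HOG1, up to 15 genes per direction with the largest difference among those that passed, differed by at least 1 and kept their sign, up to 4 members per list by size of difference, 10 fixed stress and mating genes (FUS1, STL1 and others) and the 2 ends of the authors' deposited list. Genes outside the rule were named after their values were seen. The members, the 33 lists and the tests were chosen with earlier results of these data known. The number of arrays limits the precision.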

Additional observations from a re-analysis of the deposited data

Results flagged for a closer look

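Among the genes called in the test of the difference between the strains, 9 had responses that passed in both strains with opposite direction. They were taken from the called genes, so that they passed this test was fixed by the choice. Opposite responses among genes that were not called are not counted here. AGA2, the a-agglutinin subunit, fell by 0.76 in HOG1-CCAAX and rose by 1.28 in hog1del (difference −2.05). The same order was seen for ATG41 (−0.56 and 0.88, difference −1.45), for PEX34 (−0.43 and 0.71, difference −1.14), for PRY2, a secreted sterol-binding protein (−0.31 and 0.69, difference −0.99), and for YCR064C (−0.49 and 0.49, difference −0.98). The opposite order was seen for HOG1 (0.59 and −0.46, difference 1.06), whose values in hog1del are a floor, for YIL100W (0.39 and −0.63, difference 1.03), for ASR1 (0.49 and −0.30, difference 0.79) and for YDL057W (0.36 and −0.33, difference 0.69). Among these genes, 8 of 9 passed without replicate 1 (adjusted p 0.0025 to 0.0812), 2 without replicate 2 (0.0022 to 0.2632), 1 without replicate 3 (0.0267 to 0.4609) and 1 without the replicate block (0.0313 to 0.7035).

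In probes that entered no test, the GFP probe read at least 5.31 higher on the log2 scale in HOG1-CCAAX than in hog1del, averaged over both times and replicates 2 and 3, a lower bound because the readings in hog1del, for which no GFP is named, are a floor of the probe. Its levels in HOG1-CCAAX were −0.15 and 0.05 at 0 min and 0.53 and 0.34 at 60 min, close to those of HOG1-GFP (0.42 and 0.21, then 0.74 and 0.69), while hog1del lay between −5.39 and −4.67. The kanMX4 marker probe was low in both HOG1-CCAAX (−5.90 to −4.78) and hog1del (−5.04 to −4.80) and high in HOG1-GFP (0.55 to 1.01). The labels name GFP only for HOG1-GFP and describe no marker for any strain.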

How the results depend on the processing

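With 79 higher and 60 lower genes, 139 in all, as the reported result, the sign held for each of the 139 under every alternative listed here that could fit it. This was fixed in advance for fits without a replicate or the block, as the replicate differences of each gene share a sign. Without the replicate block 2 higher and 5 lower genes passed, 7 in all. Leaving out 1 replicate gave 6 to 189 higher and 5 to 153 lower genes, 11 to 342 in all, lowest without replicate 3 and highest without replicate 1. A block that separates only replicate 1 from 2 and 3, chosen after seeing the data, called 105 higher and 91 lower. The 2 strains alone gave 92 and 85, quantile normalization 91 and 72, per-array means 76 and 58, genes with 2 or more replicates per strain 77 and 56, and a trended robust prior 66 and 56. Median centring moved the all-gene median to −0.01 and gave 59 higher and 62 lower. The counts of genes that rose or fell within each strain stayed within 1.5 times of the reported ones under all alternatives run for them. Technical spread was wider in replicate 1 (median SD 0.24 between arrays) than in replicates 2 and 3 (0.09 and 0.08 within a slide). The cause of the dependence on single replicates was not tested.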

Other observations

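Probes against the ribosomal DNA, which entered no test, mostly gave a lower response in HOG1-CCAAX than in hog1del. All 16 such probes had a mean difference below 0, 14 of them in both replicates, with a median of −1.61. These were probes for the mature 18S (−1.67), 25S (−1.13), 5.8S (−0.31) and 5S (−0.56) RNAs, for the intergenic spacers outside the precursor (−1.76 and −1.72), and for the spacers of the precursor. Of 10 probes against its transcribed spacers and their junctions, measured in replicates 2 and 3 only, all 10 rose in hog1del in both replicates, by 0.34 to 2.68, while they lay between −1.20 and 1.32 in HOG1-CCAAX and between −0.58 and 0.52 in HOG1-GFP. The difference HOG1-CCAAX minus hog1del was below 0 in both replicates for 9 of the 10, against 33.2% of the 1402 probes without an open reading frame name, and its median was −1.61 against −0.03. The probe at the junction of the 18S RNA and the external spacer had the lowest mean, −2.41 (−3.81 and −1.02 in the 2 replicates). These probes target 1 repeated locus and are not independent, and with 2 replicates no test was run.

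Some called genes have further probes along their length, measured in replicates 2 and 3. The 3 additional probes of ATG41 differed by −1.73 to −1.24 and were below 0 in both replicates. Of 10 additional probes of AMN1, 7 were below 0 in both replicates, and the means ran from −1.21 to 0.29.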
